A study of Homo sapiens with 45 samples.

Results

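The EN, GBX, GSX and LMX1 genes are 4 pairs of homeobox regulators that pattern the early nervous system: EN1 and EN2, GBX1 and GBX2, GSX1 and GSX2, and LMX1A and LMX1B. Their chromatin contacts were taken as the listed fragment pairs on 1 chromosome (cis pairs) in which either fragment came within 1000 bp of either RefSeq end of a gene. This gave 89 pairs out of 152688 cis pairs and 434524 pairs in all, each of them belonging to 1 gene. GSX1 had 32 pairs, GSX2 16, GBX2 12, LMX1A 12, EN2 6, EN1 5, GBX1 5 and LMX1B 1.

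The cells were HNES1, an established human embryonic stem cell line that can be held in the naive state, taken on day 5 after they were moved from naive medium toward the primed state. They had been given UNC6852 at 2.5 µM, a PROTAC that sends EED, a core subunit of the Polycomb complex PRC2, for degradation, UNC1999 at 1 µM, which inhibits the catalytic EZH1 and EZH2 subunits, or the solvent DMSO at an equal volume. The table holds no measure of EED or of histone methylation. Treatment started 24 h before day 0 and was renewed daily. Each condition had 15 libraries of poised-enhancer capture Hi-C, made from 3 biological replicates in 2 labelled batches (4 technical libraries of each in batch 1 and 1 library in batch 2), and the processed data hold 1 score column per condition, pooled over those libraries. There is therefore no spread between replicates, no test was possible, and the depth of the columns is unknown. The doses differ, so the compounds are not set against each other as to strength, and both differences use the same DMSO column.

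A score grows with the excess of read pairs between a captured fragment (the bait) and a second fragment over the number that a model of random contact gives. A pair is listed only if its score reached 5 in at least 1 column, and a pair is called in a profile where its score is 5 or more. Captured fragments had a median length of 625 bp and other ends 5254 bp, so a partner is located to about 5 kb unless it was captured as well.

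PRC2 places a repressive methylation mark on histones at the CpG-rich starts of developmental regulators in pluripotent cells, and poised enhancers are elements of such genes that carry this mark before the gene is switched on. Engrailed genes EN1 and EN2 are needed at the border of midbrain and hindbrain, where GBX2 marks the hindbrain side. GSX1 and GSX2 specify progenitors of the ventral forebrain, and GSX1 also lies beside PDX1 and CDX2 in the ParaHox cluster, a relative of the HOX clusters. LMX1A and LMX1B direct the roof plate of the neural tube and the dopamine neurons of the midbrain, and LMX1B also sets the dorsal side of the limb.

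For 4 of the genes the sequence just before the annotated start lay inside a fragment with listed contacts. These 250 bases are shown as a part of that fragment. A score belongs to the whole fragment and does not tell which part met the partner. The GSX1 window (chr13:27792233-27792482, plus strand) and the LMX1B window (chr9:126613678-126613927, plus strand) lay in other-end fragments, with 2 pairs and 1 pair. The GSX2 window (chr4:54099913-54100162, plus strand) and the LMX1A window (chr1:165356716-165356965, minus strand) lay in captured fragments, with 3 and 6 pairs. Sequences are from RefSeq, GRCh38.p14, 5′ to 3′ along the gene, and capitals mark CG.
GSX1: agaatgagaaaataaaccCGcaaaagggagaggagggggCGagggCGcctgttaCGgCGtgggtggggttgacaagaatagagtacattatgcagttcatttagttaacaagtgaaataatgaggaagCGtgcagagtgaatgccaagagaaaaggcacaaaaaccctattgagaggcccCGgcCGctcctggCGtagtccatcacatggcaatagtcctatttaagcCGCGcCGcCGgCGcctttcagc
GSX2: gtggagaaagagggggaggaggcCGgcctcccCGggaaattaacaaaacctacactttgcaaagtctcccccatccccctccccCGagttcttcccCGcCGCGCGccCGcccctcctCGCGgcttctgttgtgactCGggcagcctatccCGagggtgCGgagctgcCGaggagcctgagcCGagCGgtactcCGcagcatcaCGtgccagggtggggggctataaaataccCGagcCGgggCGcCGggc
LMX1A: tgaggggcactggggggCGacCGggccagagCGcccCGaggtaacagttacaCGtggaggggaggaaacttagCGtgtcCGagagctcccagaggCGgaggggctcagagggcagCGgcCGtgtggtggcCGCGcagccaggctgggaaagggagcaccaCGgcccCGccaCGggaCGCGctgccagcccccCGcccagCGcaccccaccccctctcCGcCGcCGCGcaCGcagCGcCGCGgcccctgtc
LMX1B: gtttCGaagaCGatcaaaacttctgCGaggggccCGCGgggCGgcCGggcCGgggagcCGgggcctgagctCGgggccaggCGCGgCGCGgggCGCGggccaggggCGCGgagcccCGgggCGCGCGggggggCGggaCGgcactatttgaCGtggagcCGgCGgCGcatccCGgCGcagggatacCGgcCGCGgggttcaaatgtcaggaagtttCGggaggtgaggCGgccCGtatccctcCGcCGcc
The number of CG was 14 in GSX1, 22 in GSX2, 27 in LMX1A and 38 in LMX1B. Over 15843 protein-coding genes with such a window, 96.9% held CG and the median was 17, so GSX1 lay under the median and LMX1B had a count that 4.08% of windows reached. EN2 had 45 CG, a count reached by 0.707% of windows. The DpnII site GATC, which reads the same on both strands, occurred once in the LMX1B window, overlapping a CG by its first base, and in none of the other 3, against 34.0% of all windows. The homeobox core TAAT, read on both strands and so also as ATTA, stood in the GSX1 and GSX2 windows and not in those of LMX1A and LMX1B, against 39.7% of all windows.

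The first question was how many contacts each gene had in each profile. By number of calls GSX1, which had the most pairs, differed most between profiles: 12 of its 32 pairs were called in UNC6852, 19 in UNC1999 and 4 in DMSO. As a share of its pairs EN2 differed more, with 4 of 6 called in UNC6852 and 0 in DMSO. LMX1A had 8 calls in UNC6852, 3 in UNC1999 and 4 in DMSO. GSX2 and GBX1 had most calls in DMSO. GSX2 had 6 calls in UNC6852, 3 in UNC1999 and 8 in DMSO, and GBX1 had 2, 0 and 3 in that order of profiles. GBX2 had 5, 3 and 4. EN1, EN2 and LMX1B had few calls, with 2, 3 and 1 for EN1, 4, 2 and 0 for EN2 and 1, 1 and 0 for LMX1B. For all 8 genes together, 40 pairs (44.9%) were called in UNC6852, 34 (38.2%) in UNC1999 and 24 (27.0%) in DMSO. Over all cis pairs these shares were 46.1%, 42.3% and 42.4%, so the treated shares of the genes lay near the background or a little under it and the DMSO share lay under it. GSX1 alone supplied 8 of the 16 calls by which UNC6852 exceeded DMSO. The order of the profiles changed with the threshold: with a score threshold of 7 the counts were 10 in UNC6852, 4 in UNC1999 and 6 in DMSO, and with a threshold of 10 they were 1, 0 and 3.

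**Figure D1:**
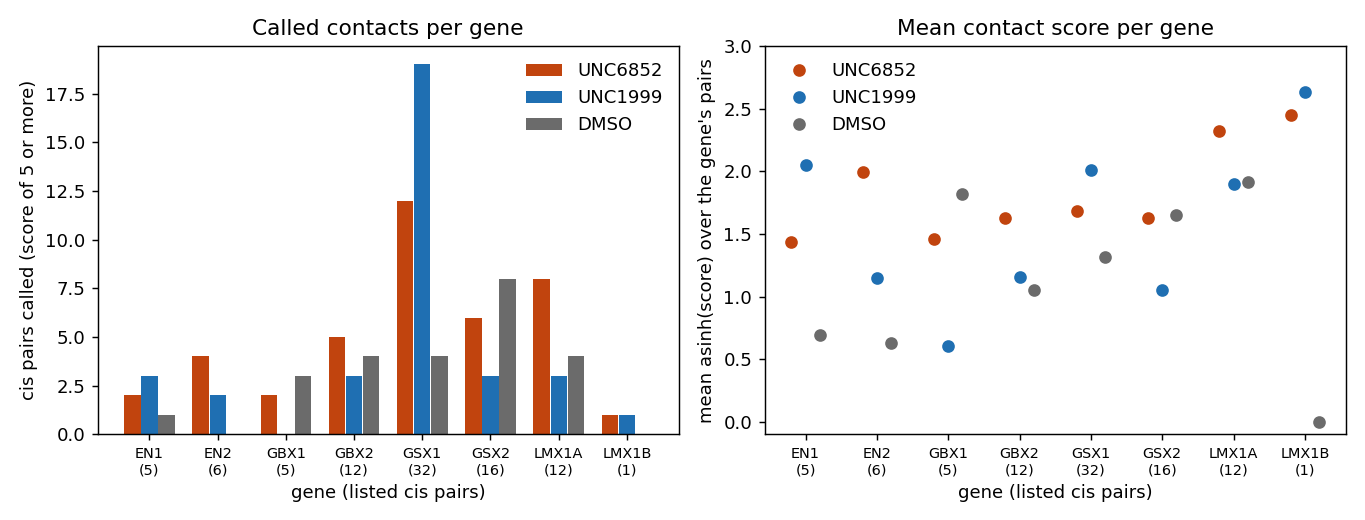
Calls (left, cis pairs with a score of 5 or more) and mean asinh score (right) of each gene in UNC6852, UNC1999 and DMSO, with the number of listed pairs under each name. Bars and points are single pooled values without error. GSX1 stands out on the left with 12, 19 and 4 calls, and on the right DMSO is lowest for EN1, EN2, GBX2, GSX1 and LMX1B and highest for GBX1 and GSX2.

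Scores were then averaged per gene after an asinh transform, which behaves like a logarithm for large scores and keeps scores of 0. EN2 averaged 2.00 in UNC6852, 1.15 in UNC1999 and 0.63 in DMSO, and EN1 averaged 1.43, 2.05 and 0.70. GBX2 averaged 1.63, 1.16 and 1.05, and GSX1 averaged 1.68, 2.01 and 1.32. LMX1A averaged 2.32 in UNC6852, 1.90 in UNC1999 and 1.92 in DMSO. UNC6852 was thus the highest profile for EN2, GBX2 and LMX1A, and UNC1999 for EN1 and GSX1. GBX1 averaged 1.46 in UNC6852, 0.60 in UNC1999 and 1.82 in DMSO, and GSX2 averaged 1.62, 1.05 and 1.65. For these 2 genes DMSO was highest, although the GSX2 difference of UNC6852 minus DMSO was -0.026. Without replicates it cannot be said which neighbours in these orders differ.

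Among the 7 genes with at least 3 pairs, the difference of UNC6852 minus DMSO was positive for 5 and negative for 2, and it was positive for 56.4% of the 4979 genes with at least 3 pairs. It was at least 0.5 for EN2 (1.37), EN1 (0.74) and GBX2 (0.58), 3 of 7 genes, against 18.3% of those genes. None of the 7 was lower by 0.5 or more, against 13.6%. For UNC1999 minus DMSO 4 were positive and 3 negative, with 49.1% positive over all genes. EN1 (1.35), GSX1 (0.69) and EN2 (0.52) were higher by at least 0.5, against 15.7% of all genes. GBX1 (-1.22) and GSX2 (-0.60) were lower by at least that much, against 16.3%. The median of the 7 was 0.40 for UNC6852, beside 0.069 over all genes, and 0.11 for UNC1999, beside -0.0076. These medians rest on 5 to 32 pairs per gene. Of the 89 pairs, 36 were called in UNC6852 alone, 27 in UNC1999 alone and 18 in DMSO alone. A pair listed through 1 column is highest there by the listing rule. The differences are therefore not separate evidence from the calls. When gene ends were widened to 5000 bp, the 8 genes had 400 pairs and the medians were 0.18 and 0.15, EN2 moved to 0.074 and 0.15, and EN1 moved to 0.26 and 0.14.

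EN1 (chromosome 2, 118842171 to 118847648, GRCh38) had the highest DMSO score of the engrailed genes. A captured fragment 616.1 kb away (chr2:118222054-118223395), in a stretch without coding genes whose nearest gene end was that of INSIG2 at 111.1 kb, met a fragment beside EN1 with scores of 2.87 in UNC6852, 6.64 in UNC1999 and 10.1 in DMSO. The difference from DMSO in asinh score was -1.23 for UNC6852 and -0.42 for UNC1999. The same captured fragment met a second fragment, across the other end of EN1 and 625.8 kb away, with scores of 5.15, 4.30 and 0.49, so 2 fragments of EN1 less than 10 kb apart gave opposite orders of UNC6852 and DMSO. From a captured EN1 fragment, a partner at 813.0 kb scored 0, 7.46 and 0, and a partner at 636.6 kb scored 6.19, 0.31 and 0. The end of C1QL2, which codes for a C1q-like secreted protein of synapses, lay 316.7 kb away and met EN1 with 0.54 in UNC6852, 5.85 in UNC1999 and 0 in DMSO. DMSO was thus called in 1 of the 5 EN1 pairs, the one at 616.1 kb, which was also the only EN1 pair whose scores averaged 5 or more and the only one with negative differences for both compounds.

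EN2 (chromosome 7, 155458129 to 155464831) had no listed captured fragment within 1000 bp of an end. Its 6 pairs were all seen from captured fragments elsewhere, with 1 and the same EN2 fragment as the other end. That fragment holds the far end of the gene and not its start. Of the partners, 4 lay within 6 kb of an end of MNX1, the homeobox gene of motor neurons, at 1.54 to 1.55 Mb. The 2 baits at the MNX1 end itself scored 6.92 and 5.35 in UNC6852, 0 and 0 in UNC1999, and 1.52 and 0 in DMSO. The other 2, at 5.5 kb and 3.5 kb from MNX1, scored 0 and 2.59 in UNC6852, 5.05 and 6.35 in UNC1999, and 0 and 0 in DMSO. Each treated profile was thus called at 2 of these 4 baits, at different ones, and DMSO at none. A further 2 baits inside PTPRN2, a phosphatase-like protein of secretory granules, lay 2.22 Mb away and scored 7.42 and 6.61 in UNC6852, 1.25 and 1.14 in UNC1999, and 2.43 and 1.09 in DMSO. The 6 pairs share their EN2 fragment and are not independent of each other.

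GBX1 (chromosome 7, 151148009 to 151167694) had 4 pairs from 1 captured fragment near its start and 1 pair at its far end. Partners called in UNC6852 only were an end of AOC1, a diamine oxidase, at 312.7 kb, with scores of 7.46 in UNC6852, 0.56 in UNC1999 and 0.49 in DMSO, and a fragment at 225.9 kb, 1.5 kb from an end of the potassium channel gene KCNH2, with 6.03, 0.52 and 1.21. Partners called in DMSO only were RHEB, an activator of mTOR signalling, at 295.4 kb, with 0.39 in UNC6852, 0 in UNC1999 and 6.96 in DMSO, and NOS3, the endothelial nitric oxide synthase, at 178.3 kb, with 2.65, 3.55 and 5.00. A captured fragment at ATP6V0E2, a subunit of the vacuolar proton pump, 1.27 Mb away, scored 0, 0 and 7.10, and the GBX1 fragment it met also holds an end of AGAP3. No GBX1 pair reached 5 in UNC1999. The negative UNC6852 difference of GBX1, -0.36, became 0.21 when only pairs with GBX1 at the bait were used and 0.13 with ends widened to 5000 bp. The UNC1999 difference stayed negative under all 9 alternatives that gave a value, of which only the 5000 bp window (23 pairs) added pairs.

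GBX2 (chromosome 2, 236161340 to 236168386) was captured on 3 fragments, and 7 of its 12 partners lay inside AGAP1, a long neighbouring gene for a regulator of membrane traffic. The highest DMSO score was with another captured fragment inside AGAP1, 106.9 kb away (chr2:236052568-236054199), which scored 4.71 in UNC6852, 0 in UNC1999 and 11.2 in DMSO. That is a difference of -3.12 for UNC1999. The 7 AGAP1 partners, at 106.9 to 486.6 kb, had 2 calls in UNC6852, 2 in UNC1999 and 3 in DMSO, none of them at the same partner. Adjoining fragments met from the same bait had different orders: the one at 389.8 kb scored 0.34 in UNC6852, 2.19 in UNC1999 and 5.35 in DMSO, and the next at 384.4 kb scored 6.77, 2.80 and 0. Further out, fragments at 673.2 kb and 1.26 Mb scored 5.98 and 6.59 in UNC6852 and 0 in both other profiles, and one at 849.4 kb scored 0 in UNC6852, 6.05 in UNC1999 and 0.16 in DMSO. The remaining 2 pairs spanned 139.88 and 138.40 Mb of chromosome 2. One joined the ends of CIAO1 and SNRNP200, genes for iron-sulphur cluster assembly and splicing, with a score of 13.8 in UNC6852 and 0 in UNC1999 and DMSO, and the other a fragment inside TMEM131, with 0, 0 and 10.7. They gave the largest positive and the largest negative UNC6852 difference of the gene, 3.32 and -3.07. Without pairs beyond 2 Mb the GBX2 differences were 0.67 for UNC6852 and 0.43 for UNC1999, against 0.58 and 0.11 with them. The UNC1999 difference of GBX2 was -0.096 with quantile-normalized scores and -0.023 with neighbouring other ends merged, and -3.12 for the 1 pair whose scores averaged 5 or more, the one at 106.9 kb.

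GSX1 (chromosome 13, 27792483 to 27794768) had 29 pairs from 3 captured fragments at its ends and 3 pairs as the other end of baits elsewhere. The values of single partners fell into stretches, which were chosen here after the values were seen. Toward the rest of the ParaHox cluster, 12 pairs at 136.7 to 199.5 kb had 4 calls in UNC6852, 8 in UNC1999 and 1 in DMSO. Within them, the 6 pairs inside CDX2 or within 2 kb of it, at 162.2 to 176.1 kb, were all called in UNC1999, with scores of 5.12 to 7.42. They scored 0.73 to 3.84 in UNC6852, with no call, and 1.37 to 5.89 in DMSO, with 1 call. A fragment 1.1 kb from CDX2, at 166.6 kb, scored 3.84 in UNC6852, 6.01 in UNC1999 and 4.54 in DMSO, one of the 3 highest mean scores of GSX1. CDX2 encodes a regulator of trophectoderm and hindgut, and the pair of captured fragments at GSX1 and CDX2, 167.7 kb apart, scored 3.54 in UNC6852, 5.12 in UNC1999 and 5.89 in DMSO. The bait across the other CDX2 end, 176.1 kb away, scored 2.22, 7.42 and 1.37.

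Further out the profiles changed places. The 3 pairs at 189.5 to 199.5 kb met 2 adjoining fragments, 1 inside URAD and 1 across an end of it. They scored 7.12 to 8.87 in UNC6852, 3.14 to 3.72 in UNC1999 and 1.87 to 3.0 in DMSO. The UNC6852 range thus lay above both others, and UNC6852 alone was called. Between CDX2 and URAD lay a captured fragment (chr13:27975248-27976327) that met a captured GSX1 fragment 184.9 kb away, and this pair was scored from both ends. It scored 1.66 and 1.46 in UNC6852, 6.28 and 6.90 in UNC1999, and 1.97 and 1.57 in DMSO. Both readings belong to 1 fragment pair, so their order, with UNC1999 highest, counts as 1 observation. A fragment 3.1 kb from PDX1, the regulator of the pancreas, scored 5.29, 2.39 and 1.77 at 136.7 kb.

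On the opposite side of GSX1, 20 pairs at 67.0 to 822.4 kb had 8 calls in UNC6852, 11 in UNC1999 and 3 in DMSO. A group of 8 fragments gave 9 pairs at 367.2 to 425.3 kb with 4, 5 and 2 calls. The gene end nearest to these fragments was that of GTF3A, up to 56.5 kb away. GTF3A codes for the factor that starts transcription of small ribosomal RNA genes. One of these pairs, at 414.0 kb (chr13:27374380-27379468), was the only pair of the 89 called in all 3 profiles. Its partner lay 45.2 kb from GTF3A, and it scored 5.76 in UNC6852, 8.75 in UNC1999 and 6.55 in DMSO. The fragment across the GTF3A end itself scored 1.25, 6.29 and 0.12, and the one at POLR1D, a subunit of RNA polymerases I and III, 125.5 kb away, scored 5.38, 2.08 and 0.86. The UNC1999 difference of GSX1, 0.69, was positive under all 10 alternatives, from 0.29 to 1.10. The UNC6852 difference, 0.36, was negative under 4 of 10. It was -0.48 with gene ends within 0 bp, -0.040 with quantile-normalized scores (which put the median of all genes at -0.14), -0.13 for pairs whose scores averaged 5 or more and -0.34 with GSX1 at the other end only (3 pairs).

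**Figure D2:**
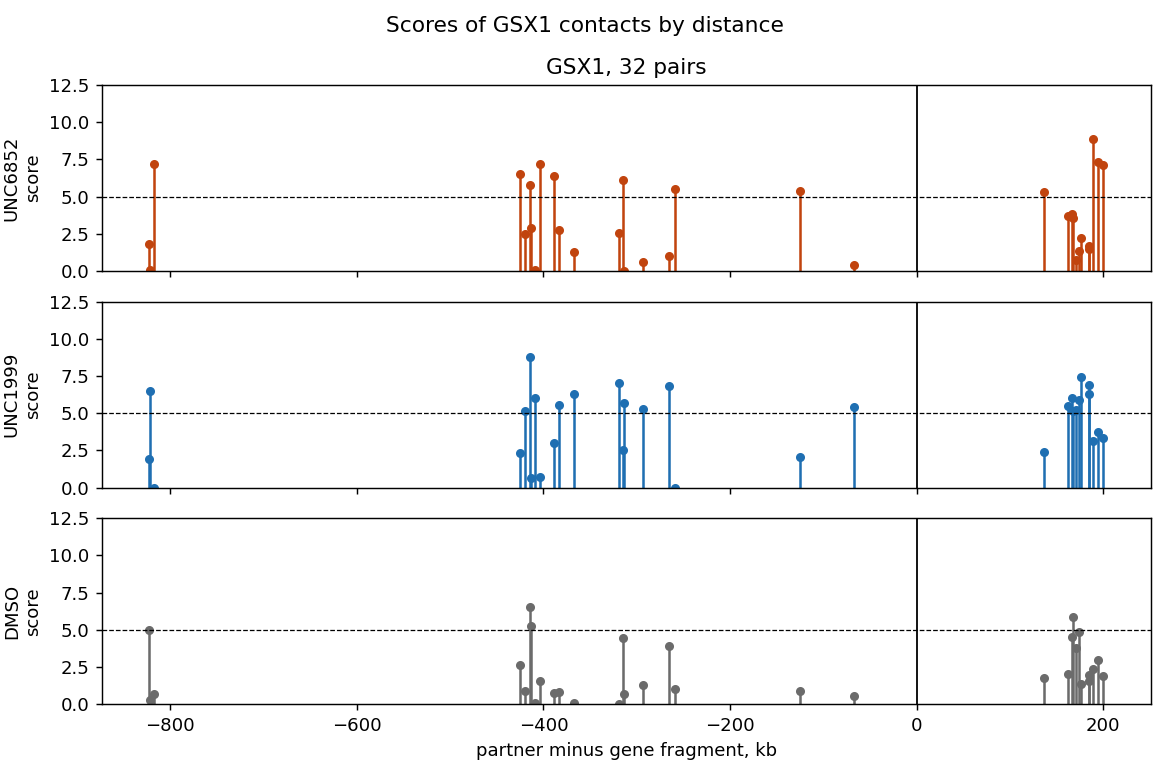
Scores of the 32 GSX1 pairs against the distance of the partner from the GSX1 fragment in kb (negative toward POLR1D and GTF3A, positive toward PDX1, CDX2 and URAD), with UNC6852, UNC1999 and DMSO from top to bottom. The dashed line is the call threshold of 5. At 162.2 to 176.1 kb all 6 pairs are above the line in UNC1999, against 0 in UNC6852 and 1 in DMSO, and at 189.5 to 199.5 kb the 3 pairs are above it in UNC6852 alone.

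GSX2 (chromosome 4, 54100163 to 54102498) had 15 pairs from 3 captured fragments and 1 pair as an other end. At 170.0 to 183.1 kb, 4 pairs with 3 fragments, nearest to CHIC2, scored 2.22 to 4.90 in UNC6852, 3.09 to 6.47 in UNC1999 and 2.14 to 6.19 in DMSO, with 0, 2 and 3 calls. The highest mean score was at 170.0 kb, with 4.90, 5.59 and 5.02, so this contact was close to the threshold in every profile. The fragment at 177.9 kb, the highest UNC1999 score of the gene, had 3.77, 6.47 and 2.14. Toward PDGFRA, the receptor for platelet-derived growth factor, 3 fragments at 98.9 to 124.4 kb scored 3.55 to 6.41 in UNC6852, 0.32 to 3.84 in UNC1999 and 2.04 to 5.22 in DMSO. The one at an end of PDGFRA, 124.4 kb away, scored 6.41, 3.84 and 2.94. A captured fragment 3.9 kb from PDGFRA, which met GSX2 over 121.3 kb, scored 3.55, 0.32 and 5.22, the opposite order of UNC6852 and DMSO. The ends of PDCL2 and NMU, 1.49 Mb away, scored 0 in both treated profiles and 8.53 in DMSO. Adjoining fragments inside SCFD2, a gene of vesicle transport, were met from different GSX2 baits. The one at 1085.5 kb scored 5.18, 0.65 and 0.55, and the one at 1083.5 kb scored 0, 0 and 7.29. Contacts at 58.80 Mb (inside ANK2) and 64.11 Mb (inside NDST3) were called in UNC6852 alone and in UNC1999 alone. The UNC1999 difference of GSX2 was negative under 9 of 10 alternatives and 0.11 for the 1 pair whose scores averaged 5 or more. The UNC6852 difference was 0.22 with ends widened to 5000 bp.

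LMX1A (chromosome 1, 165201867 to 165356715) was captured on 2 adjoining fragments at its start and had 12 pairs, none of them at 0 in any profile. Inside the gene itself, 2 neighbouring fragments at 94.6 to 100.6 kb from the start were each met from both baits. The farther one scored 6.73 and 6.51 in UNC6852, 2.54 and 4.8 in UNC1999, and 4.33 and 5.40 in DMSO, so both baits put UNC6852 highest. The nearer one scored 7.22 and 4.83 in UNC6852, 2.63 and 5.24 in UNC1999, and 2.42 and 6.98 in DMSO, and there the 2 baits gave opposite orders of UNC6852 and DMSO. Beyond the far end of the gene, 5 fragments at 200.8 to 237.1 kb scored 1.11 to 8.37 in UNC6852, 1.90 to 5.39 in UNC1999 and 2.04 to 6.25 in DMSO. The one at 206.1 kb was called in both treated profiles, with 5.72 in UNC6852, 5.39 in UNC1999 and 4.43 in DMSO. On the other side, 2 fragments near UCK2, at 559.2 and 564.2 kb, scored 5.21 and 5.88 in UNC6852, 2.30 and 2.80 in UNC1999, and 0.088 and 1.94 in DMSO. UNC6852 was higher than DMSO in 9 of the 12 pairs and UNC1999 in 5. The UNC6852 difference of 0.40 became 0.090 with ends widened to 5000 bp and -0.061 over the 4 pairs whose scores averaged 5 or more. The UNC1999 difference of -0.018 was 0.12 with gene ends within 0 bp, 0.15 within 5000 bp and 0.072 with neighbouring other ends merged.

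**Figure D3:**
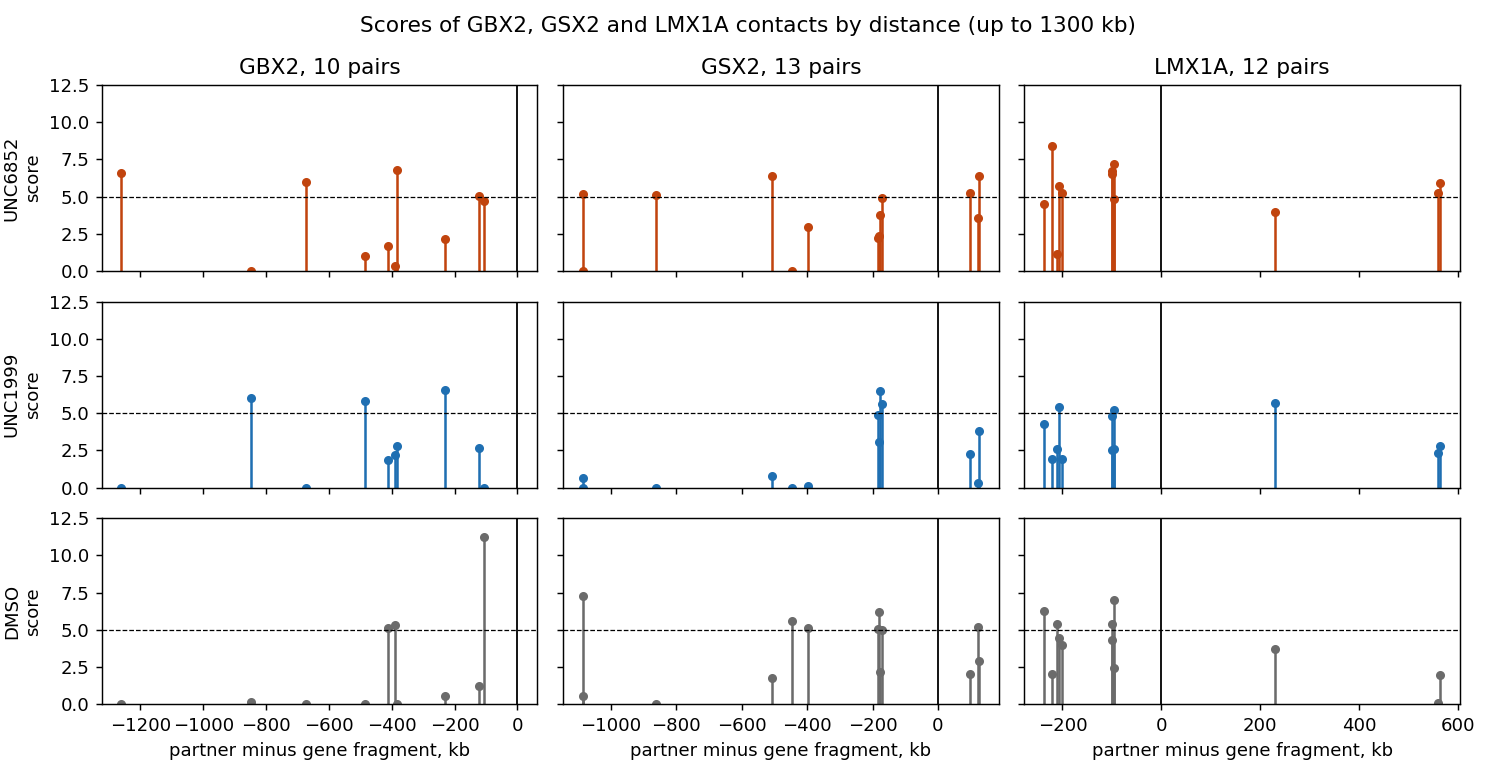
Scores of the GBX2, GSX2 and LMX1A pairs up to 1300 kb against the distance of the partner from the gene fragment, with UNC6852, UNC1999 and DMSO from top to bottom and the call threshold of 5 dashed. LMX1A has a score above 0 in each of its 12 pairs in every profile. Most GBX2 and GSX2 partners beyond 400 kb are above the line in 1 profile and near 0 in another, and so is the LMX1A partner at 559.2 kb.

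LMX1B (chromosome 9, 126613928 to 126701032) had 1 pair. Its start was met by a captured fragment 2.61 Mb away (chr9:124004637-124004922), 6.8 kb from an end of LHX2, a LIM homeobox gene of the forebrain. The scores were 5.75 in UNC6852, 6.91 in UNC1999 and 0 in DMSO, so it was the only one of the 89 pairs called in both treated profiles with a score of 0 in DMSO. With gene ends widened to 5000 bp LMX1B had 60 pairs, and the differences were then 0.0018 for UNC6852 and 0.44 for UNC1999.

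The recurrence of contacts between profiles was compared next. A single profile held the call for 81 of the 89 pairs (91.0%, against 77.5% of all cis pairs), while 7 (7.87%, against 14.1%) had it in 2 profiles and 1 (1.12%, against 8.33%) in all 3. UNC6852 kept 2 of the 24 DMSO calls (8.33%, exact 95% interval 1.03 to 27.0), where over all cis calls of DMSO it kept 31.4%. UNC1999 kept 5 of them (20.8%, 7.13 to 42.2), where over all cis calls it kept 29.3%. The treated profiles shared 3 contacts. These were 7.50% of the UNC6852 total of 40, where the share over all cis calls was 29.1%, and 8.82% of the UNC1999 total of 34, where it was 31.7%. Fewer calls thus recurred than over all cis pairs in each of these comparisons, although for DMSO and UNC1999 the interval held the share of all cis calls. Of the 55 pairs of 100 to 500 kb, 50 (90.9%, against 74.5%) were called in 1 profile, 4 (7.27%, against 16.1%) in 2 and 1 (1.82%, against 9.42%) in 3. At these distances UNC6852 kept 2 of the 17 calls of DMSO (11.8%, 1.46 to 36.4), against 34.3% over all such cis pairs, and UNC1999 kept 3 (17.6%, 3.80 to 43.4), against 32.0%. Among calls with a score under 10 UNC6852 kept 9.52% (1.17 to 30.4) of those of DMSO, against 27.7%, and UNC1999 kept 19.0% (5.45 to 41.9), against 25.7%. With either restriction the interval for UNC6852 held the share of all cis pairs, which it did not over all 24 calls. The intervals are exact binomial, cover counting error only and treat pairs that share a fragment as separate. When neighbouring other ends of a bait were merged, UNC6852 kept 21.7% (7.46 to 43.7) of those of DMSO, against 35.8% of all merged cis pairs, and UNC1999 kept 26.1% (10.2 to 48.4), against 34.0%. The treated profiles then shared 6 contacts, 17.1% (6.56 to 33.6) of the merged UNC6852 calls, against 33.7%, and 18.75% (7.21 to 36.4) of the merged UNC1999 calls, against 36.1%. After merging, 3 of these 4 intervals held the share of all merged cis pairs, and the upper bound of the other, 33.6%, lay just under it.

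**Figure D4:**
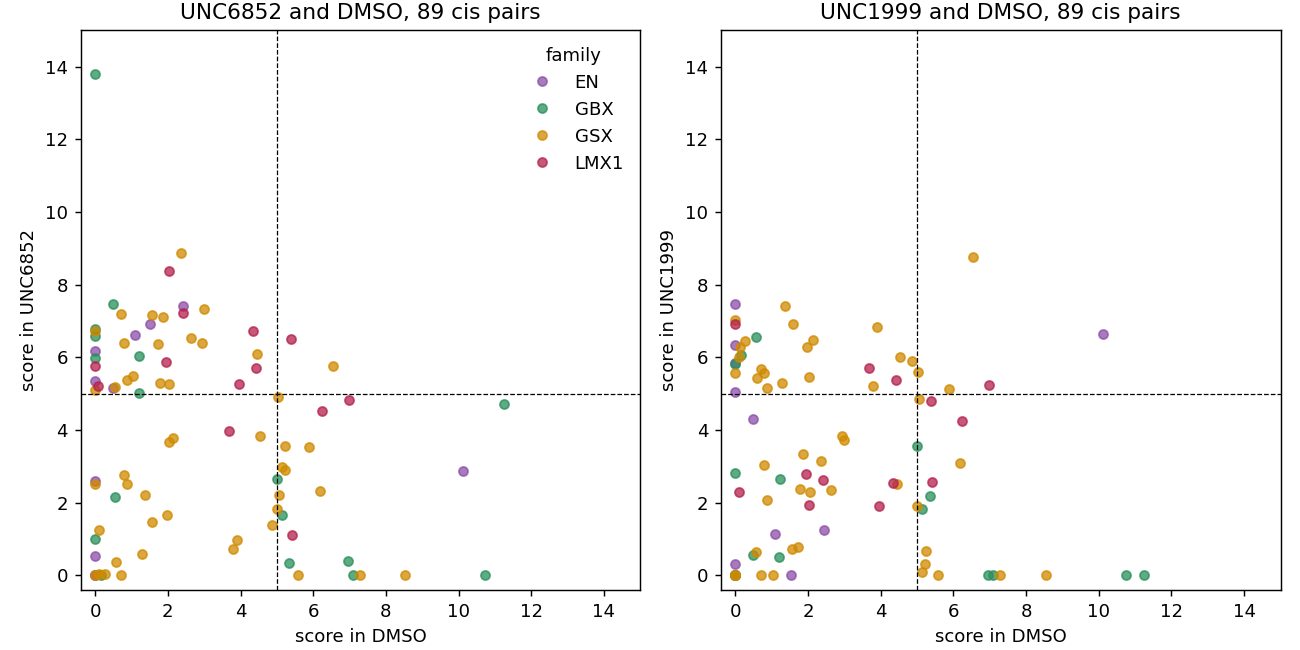
Score of each of the 89 pairs in UNC6852 (left) and UNC1999 (right) against its score in DMSO, coloured by family, with the call threshold of 5 dashed on both axes. The upper right corner, called in both, holds 2 pairs on the left and 5 on the right, and the listing rule, a score of 5 in at least 1 column, removes pairs that are low in all 3.

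Pairs with a change of at least 1 in asinh score were counted against all cis pairs. In UNC6852, 33 of the 89 pairs (37.1%) were higher than DMSO by that much and 13 (14.6%) lower, against 20.2% and 17.1%. In UNC1999, 26 (29.2%) were higher and 11 (12.4%) lower, against 18.6% and 18.7%. GSX1 gave 10 of the 33 and 13 of the 26. Of the 11 pairs lower in UNC1999, GSX2 gave 5. Most pairs were listed through 1 profile, so these counts are not separate from the calls either.

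In distance the 89 pairs lay near the background. The nearest partner was 67.0 kb away, whereas 3.87% of all cis pairs were shorter than that. Distances of 100 to 500 kb made up 61.8% of the pairs, against 64.5% of all cis pairs, and 7 pairs spanned more than 2 Mb, 7.87% against 7.38%. Only 4 pairs (4.49%) reached a score of 10 in any profile, against 7.21%, and the highest was 13.8. In 8 cases 2 captured fragments of 1 gene met the same partner: the sign of the difference from DMSO was the same from both in 5 of 8 for UNC6852 and in 4 of 8 for UNC1999.

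Other regulators of the same regions of the neural tube were listed for comparison, among them OTX2, PAX2, FGF8, WNT1, SHH and the DLX genes. Of 29 genes, 21 had at least 3 cis pairs. UNC6852 was higher than DMSO in 12 and lower in 9, with a median difference of 0.070 beside 0.069 over all genes. UNC1999 was higher in 15 and lower in 6, with a median of 0.20 beside -0.0076. Over all genes 56.4% were higher in UNC6852 and 49.1% in UNC1999. DLX6 (0.62 and 0.53) and MSX1 (0.51 and 0.72) were higher by at least 0.5 in both, PHOX2A (0.64) in UNC6852 and SIX3 (0.58) in UNC1999. These were 3 of the 21 genes for each compound, against 18.3% and 15.7% of all genes, so by this count the list did not stand above the background. By its median and by the number of genes higher, the list lay above all genes for UNC1999, without a test. DLX1, a regulator of forebrain interneurons, was the only 1 of the 21 lower by at least 0.5, at -0.66 and -1.67 over 3 pairs. Of all genes 13.6% and 16.3% were lower by that much. By the distance between their 3 mean scores, the listed gene most like GSX1 was DLX6 (0.31), with means of 1.86 in UNC6852, 1.77 in UNC1999 and 1.24 in DMSO. The nearest to GBX2 was PHOX2A (0.30). EN1 was nearest to MSX1 (0.46), EN2 to PHOX2A (0.61), and both GBX1 (0.71) and GSX2 (0.50) to WNT1, each over 3 profiles and 21 candidate genes.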

How the data were processed

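The 45 libraries of poised-enhancer capture Hi-C fall into 15 per condition (UNC6852, UNC1999, DMSO), each from 3 biological replicates and 2 labelled batches that hold every condition equally. The authors deposited 1 table with 1 interaction score per fragment pair and condition, pooled over the libraries per the labels, with GRCh38 as build per the submitters' processing notes. The score is that of the CHiCAGO caller, per the labels. The aligner, versions and settings are not given in the sources used here. In the deposited table the scores are never negative and the columns are not scaled to each other. The distance column is in bp between fragment midpoints. The number of other columns with values of samples was 0. Replicate counts and read depth were not used here.

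Pairs were assigned to the 20050 protein-coding genes of RefSeq (GRCh38.p14) by fragments within 1000 bp of a gene end. Scores were transformed with asinh and averaged per gene, and genes with at least 3 pairs served as background. A gene difference of at least 0.5 and a pair difference of at least 1 were counted. Exact (Clopper-Pearson) 95% intervals cover counting error only. The members and lists were chosen with earlier results of these data known. Pairs were named by rule: the 3 highest mean scores per gene at 20 kb or more, and the extreme differences among pairs with a score of at least 10. Every coding gene at a partner fragment was named too. Other pairs, and the stretches around CDX2, URAD, MNX1, PTPRN2, GTF3A, AGAP1, CHIC2, PDGFRA and LMX1A, were picked after their values were seen. The most alike gene has the smallest Euclidean distance over the 3 mean asinh scores, and that of LMX1A is not reported here. Alternatives changed the window, scale, distance, side, merging, threshold and score filter. The averaging was checked by adding known shifts to the real DMSO scores of chosen genes and reading them back. The same assignment of pairs to genes served both steps, so the assignment was not tested. Python 3.11.15, numpy 2.4.6, pandas 2.3.3, scipy 1.17.1 and matplotlib 3.10.9 were used.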

Additional observations from a re-analysis of the deposited data

How the results depend on the processing

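No paired analysis was possible because each condition has 1 pooled column that carries no replicate numbers, and for the same reason no replicate could be left out. Pairs that share a fragment are not independent, and the listing rule removes pairs under 5 in all columns. The median UNC6852 difference (0.40 as reported) was 0.65 with gene ends within 0 bp, 0.18 within 5000 bp, 0.17 after quantile normalization, and -0.061 for pairs whose scores averaged 5 or more, where 1 gene had enough pairs. The median UNC1999 difference (0.11) was 0.32 within 0 bp, 0.059 on the log2 scale, 0.43 up to 2 Mb, 1.10 for genes at other ends only, -0.018 for genes at baits only, -0.096 after quantile normalization and -0.15 for an average of 5 or more. Quantile normalization moved the medians over all genes to -0.14 for UNC6852 and -0.23 for UNC1999. Calls in UNC6852, UNC1999 and DMSO (40, 34 and 24) were 13, 8 and 6 within 0 bp, 164, 161 and 137 within 5000 bp, 6, 8 and 3 at the other end only, 3, 5 and 7 for an average of 5 or more, 10, 4 and 6 at a threshold of 7, and 1, 0 and 3 at a threshold of 10. DMSO thus had the most calls at an average of 5 or more and at a threshold of 10, and more than UNC1999 at a threshold of 7. The average includes the DMSO score, so a pair can pass this filter through a high DMSO score. The DMSO lead under it is therefore not separate evidence. The listing rule acts likewise on the differences as reported: 36 pairs were called in UNC6852 alone, 27 in UNC1999 alone and 18 in DMSO alone. The share of DMSO calls kept in UNC6852 (8.33%) was 0 within 0 bp, at the other end only and at thresholds of 7 and 10, and 28.6% for an average of 5 or more. The share kept in UNC1999 (20.8%) was 0 within 0 bp and at thresholds of 7 and 10, and 57.1% for an average of 5 or more. The share of UNC6852 calls kept in UNC1999 (7.50%) was 0 at 7 and 10 and 66.7% for an average of 5 or more, and the share of UNC1999 calls kept in UNC6852 (8.82%) was 0 at 7 and 40.0% for that filter. With neighbouring other ends merged these 2 shares were 17.1% and 18.75%. The last has no value at 10, where UNC1999 had no call. Single genes that changed sign for an average of 5 or more, each on 1 pair, were EN1 (-1.23 for UNC6852 and -0.42 for UNC1999), GBX2 (-0.86 for UNC6852 and -3.12 for UNC1999), GSX1 (-0.13 for UNC6852) and GSX2 (0.11 for UNC1999). The EN1 and GBX2 pairs scored highest in DMSO, at 10.1 and 11.2, which helped them pass this filter. The UNC1999 differences of GSX1 (0.29 to 1.10) and GBX1 (-2.66 to -0.49), and both EN2 differences, kept their sign in all alternatives that gave a value. For EN2 and GBX1 this says little, as only the 5000 bp window added pairs. The other alternatives used the same 6 pairs of EN2 or 5 of GBX1, or fewer. For GSX1 too, only that window added pairs to its 32. In that window the EN2 differences were 0.074 for UNC6852 and 0.15 for UNC1999 over 56 pairs. The UNC1999 difference of GBX1 was -0.49 over 23 pairs. The restriction to calls with a score under 10 was chosen after seeing the data. The cause of these changes was not tested.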

Other observations

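Contacts between chromosomes were listed as well. The 8 genes had 142 such pairs, with 39 called in UNC6852 (27.5%, against 34.3% of all 281836 such pairs), 48 in UNC1999 (33.8%, against 36.1%) and 55 in DMSO (38.7%, against 30.0%). None of the 142 was called in more than 1 profile, against 0.334% of all such pairs. GSX2 had 36 of them, GBX2 33, GSX1 26, LMX1A 19, GBX1 17 and EN1 9. EN2 and LMX1B, which had no listed captured fragment within 1000 bp of a gene end, had 1 each. The highest score between chromosomes was 15.4, at EN1, above the 13.8 that was the highest on 1 chromosome.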
